A study of Arabidopsis thaliana with 18 samples.

Results

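WT protoplasts at Day 6 of culture were compared with WT protoplasts at Day 4, an interval in which, by the study's imaging, cultured protoplasts begin to divide. The members were chosen by their titles: 3 libraries of Day 6 WT and 3 libraries of Day 4 WT, 6 of the 18 libraries in the series. Both groups were Columbia-0 leaf mesophyll protoplasts that carried no mutation, were listed as control for treatment, and had been cultured for 6 days or for 4 days after isolation. All cultured protoplasts of the study lay in sodium alginate gels in the dark, in a liquid medium with glucose, mannitol, a synthetic auxin (2,4-D) and thidiazuron as cytokinin. For 1 comparison the double mutant *nph4-1 arf19-1* was also used, with 3 libraries at Day 6 and 3 at Day 4. It carries mutations in the genes of the auxin response factors ARF7 and ARF19, and its Day 6 libraries are listed as treated with yucasin, an inhibitor of auxin synthesis, whereas its Day 4 libraries are listed as control. The study's own account of the mutant's expression data names no yucasin, and which of the sources is right was not settled here. A gel held dividing and non-dividing protoplasts side by side, and only a small share of protoplasts divides in such a culture. In these bulk samples, fewer cells of a type and less RNA per cell cannot be told apart.

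The 3 Day 6 WT libraries held 5976036, 6017963 and 7378993 mapped reads, against 6564391, 5698515 and 5892989 in the 3 Day 4 WT libraries, so that 3 reads corresponded to between 0.407 and 0.526 RPM (reads per 1000000 mapped reads). Levels are given here as CPM (the same unit) after TMM scaling, for the lowest-numbered splice variant of a locus, and libraries are named in the order of their replicate numbers. Day 4 WT replicate 1 stood apart from the other Day 4 libraries: the chi-square statistic per degree of freedom was 12.47 and 17.33 between it and the other Day 4 libraries, against 4.59 between those and 4.52 to 7.25 among the Day 6 libraries. The first principal component held 70.2% of the variance and separated Day 6 from Day 4, and the second, with 12.3%, separated that library from the other Day 4 libraries. For some counts the value without it, or without another library, is given as well.

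A plant cell that divides passes through DNA synthesis (S phase) and mitosis (M phase), and its transcription follows these phases. Activator-type MYB3R proteins bind mitosis-specific activator elements, whose core is AACGG, in the promoters of genes used in G2 and M phase, and E2F proteins bind elements such as TTTCCCGC and TTTGGCGC in the promoters of genes used for DNA replication. Auxin and cytokinin start callus growth in culture, where auxin acts through ARF transcription factors, their Aux/IAA repressors and PIN exporters. Freshly isolated leaf protoplasts carry a strong wound, defence and heat-type stress response. Day 0 levels are given below for some genes and lists, since not all defence genes were high then.

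Across the transcriptome, most of the listed G2/M phase-specific genes and some of cytokinesis, the alpha-expansins, the Aux/IAA family and the procambium were higher at Day 6. Most of the heat shock and mitochondrial genome transcripts and some of pathogen response and tryptophan-derived metabolism were lower. Of 18143 genes tested, 1702 (9.38%) were upregulated and 2164 (11.9%) were downregulated at Day 6 relative to Day 4 at a false discovery rate (FDR) under 0.01 by edgeR's quasi-likelihood test, 3866 (21.3%) in all. Counts of calls in the gene lists below are to be read beside these shares of all genes tested. With a log2 fold change over 2 or under -2 in addition, 133 genes (0.733%) were upregulated and 258 (1.42%) downregulated. The libraries of the 2 days did not overlap for 8454 genes (46.6%), with all Day 6 libraries higher for 23.9% and all Day 6 libraries lower for 22.7% of the genes tested. A call and no overlap were among the conditions by which list and ranked genes were chosen, so for those genes both are description. The median log2 fold change was 0.008, with quartiles of -0.33 and 0.34. The split between the directions depended on the scaling: with library totals alone, the median moved to 0.138 and the counts became 2517 upregulated and 1625 downregulated. Without Day 4 WT replicate 1, 1165 genes were upregulated and 1754 downregulated.

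**Figure D1:**
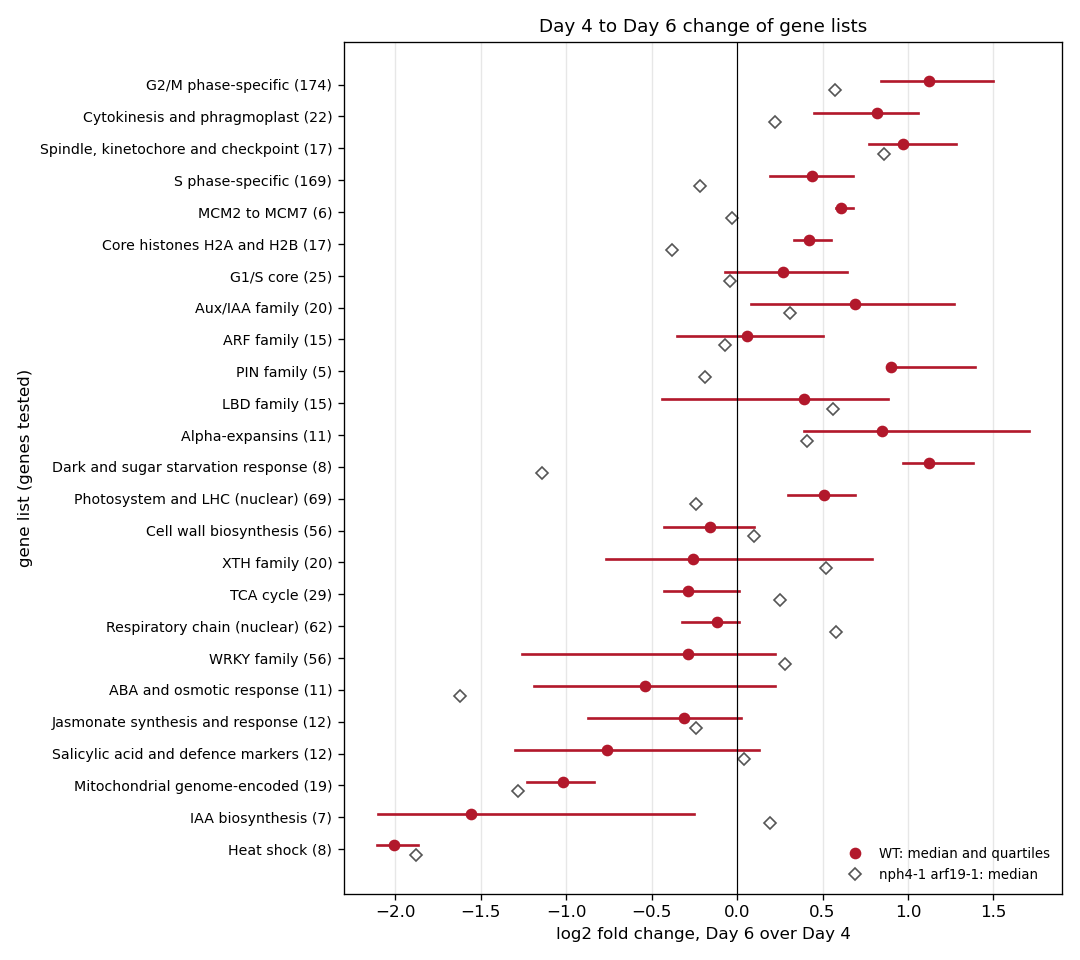
Median log2 fold change (Day 6 over Day 4) of 25 gene lists, with the number of genes tested in brackets. Filled circles and lines give the WT median and quartiles, and open diamonds give the median of the same genes in *nph4-1 arf19-1*. The G2/M phase-specific list had a WT median of 1.12, and the heat shock list lay at -2.01.

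Most G2/M phase-specific genes rose. Of 185 published G2/M phase-specific genes, which the study also displays for these libraries, 174 were tested: 118 (67.8%) were upregulated, none was downregulated, and 173 had a positive log2 fold change, with a median of 1.12. The count was 93 without Day 4 WT replicate 1 and 78 without Day 6 WT replicate 2, with no downregulated gene in either case. All Day 6 libraries lay above all Day 4 libraries for 146 of the 174. Of 38 tested genes of the study's core G2/M list, 16 were upregulated and none downregulated, with a median of 0.85 (10 when only the 6 WT libraries were fitted).

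The promoters of 4 of these genes are shown, since they carry the element that names the group and belong to genes described next. They run from 250 bases before to 50 bases after the annotated start (RefSeq annotation of TAIR10.1), 5′ to 3′ on the strand of the gene, and capitals mark each AACGG on either strand, which reads CCGTT where it lies on the other strand. *SYP111* is on the minus strand at chr1:2710951-2711250, *CYCB2;2* on the plus strand at chr4:16901346-16901645, *MAD2* on the plus strand at chr3:9502806-9503105 and *CSLD5* on the minus strand at chr1:598608-598907.
SYP111: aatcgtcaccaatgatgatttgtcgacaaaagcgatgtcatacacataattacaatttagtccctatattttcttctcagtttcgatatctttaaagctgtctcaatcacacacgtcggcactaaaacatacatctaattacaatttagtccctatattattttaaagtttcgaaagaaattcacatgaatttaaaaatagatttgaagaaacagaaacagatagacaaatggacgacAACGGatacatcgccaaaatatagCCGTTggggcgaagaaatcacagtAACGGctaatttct
CYCB2;2: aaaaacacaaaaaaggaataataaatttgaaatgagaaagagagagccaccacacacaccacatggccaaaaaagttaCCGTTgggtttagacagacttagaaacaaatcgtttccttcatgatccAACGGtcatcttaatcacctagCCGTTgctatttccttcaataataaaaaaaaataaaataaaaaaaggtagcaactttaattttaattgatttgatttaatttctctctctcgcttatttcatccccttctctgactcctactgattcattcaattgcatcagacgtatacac
MAD2: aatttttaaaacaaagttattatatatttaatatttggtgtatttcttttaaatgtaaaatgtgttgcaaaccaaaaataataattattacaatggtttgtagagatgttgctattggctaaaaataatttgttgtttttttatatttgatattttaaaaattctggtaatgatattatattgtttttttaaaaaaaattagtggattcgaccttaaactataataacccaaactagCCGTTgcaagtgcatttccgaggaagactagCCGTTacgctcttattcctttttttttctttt
CSLD5: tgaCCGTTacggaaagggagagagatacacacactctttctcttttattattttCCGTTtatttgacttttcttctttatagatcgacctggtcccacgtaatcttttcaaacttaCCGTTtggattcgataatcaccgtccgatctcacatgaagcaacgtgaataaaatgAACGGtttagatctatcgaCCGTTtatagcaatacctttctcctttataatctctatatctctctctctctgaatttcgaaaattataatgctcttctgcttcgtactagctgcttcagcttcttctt
In *SYP111* the 3 matches were centred at -10, 14 and 38 from the start, and in *MAD2* the 2 matches at -11 and 20. *CYCB2;2* had 3 matches and *CSLD5* had 5, all before the start. Of the 185 G2/M phase-specific genes, 124 (67.0%) had AACGG in this window and 60 (32.4%) had it 2 or more times, whereas 24.7% of 27443 protein-coding genes had it and 4.89% had it 2 or more times. Among tested G2/M phase-specific genes, 57.1% of the 56 without a match, 66.7% of the 60 with 1 match and 79.3% of the 58 with 2 or more were upregulated, with median log2 fold changes of 0.97, 1.08 and 1.35. Among all genes tested with a promoter, the upregulated shares were 8.84%, 10.5% and 13.5% in the same order, and the downregulated shares 12.4%, 10.6% and 6.81%. These shares include the G2/M phase-specific genes, which made up 46 of the 139 upregulated genes with 2 or more matches. A match is a description of the sequence and does not show binding.

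*SYP111* (AT1G08560) encodes KNOLLE, the syntaxin that fuses vesicles at the cell plate. It had 66.0, 77.1 and 59.2 CPM at Day 6, against 12.7, 24.9 and 16.2 CPM at Day 4, a 3.77-fold increase (log2 fold change 1.92, SE 0.20, FDR 6.25e-07). *MAD2* (AT3G25980), a subunit of the spindle checkpoint, had 23.9, 31.8 and 24.4 CPM at Day 6, against 5.29, 8.04 and 5.86 CPM at Day 4 (4.18-fold, FDR 2.02e-06). In both genes every Day 6 library lay well above every Day 4 library, and Day 6 replicate 2 was the highest. The mitotic cyclin gene *CYCB2;2* (AT4G35620) had 20.4, 22.2 and 19.7 CPM at Day 6, against 3.49, 6.87 and 6.36 CPM at Day 4 (3.74-fold, FDR 1.78e-06). *CYCB2;3* (AT1G20610) had 18.1, 18.1 and 13.7 CPM at Day 6, against 4.73, 8.04 and 3.06 CPM at Day 4 (log2 fold change 1.66, FDR 6.34e-05). Both cyclins, like *SYP111* and *MAD2*, were chosen among called genes with no overlap between the days.

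The spindle and the cell plate moved with the cyclins. Of 17 genes of the spindle, kinetochore and checkpoint, 7 were upregulated and none downregulated (median 0.97), and all 17 had a positive fold change. Of 22 genes of cytokinesis and the phragmoplast, 11 were upregulated and 1, *KEU* (AT1G12360), was downregulated (median 0.82). The *KEU* call was lost with library totals alone (FDR 0.0146) and without Day 4 WT replicate 1, Day 6 WT replicate 2 or Day 6 WT replicate 3 (FDRs of 0.0101 to 0.0131). The counts were 4 for the spindle list without Day 4 WT replicate 3 and 6 for the cytokinesis list without Day 6 WT replicate 2. *AUR1* (AT4G32830), an Aurora kinase, had 13.5, 15.4 and 10.9 CPM at Day 6, against 4.61, 7.26 and 3.95 CPM at Day 4 (log2 fold change 1.33, FDR 1.10e-04). *TPX2* (AT1G03780), a spindle assembly factor that activates Aurora kinase, had 15.8, 16.0 and 10.2 CPM at Day 6, against 5.29, 8.04 and 3.95 CPM at Day 4 (log2 fold change 1.28, FDR 5.62e-04). Neither gene overlapped between the days, although the lowest Day 6 library and the highest Day 4 library of each were close.

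*ATN* (AT3G05330, TANGLED), which marks the division plane, had a log2 fold change of 1.62 (SE 0.20, FDR 3.88e-06). *CSLD5* (AT1G02730), a cellulose synthase-like protein that acts at the cell plate, had 127, 159 and 123 CPM at Day 6, against 37.4, 63.1 and 42.1 CPM at Day 4 (2.87-fold, FDR 3.05e-05). Its lowest Day 6 library lay well above its highest Day 4 library. Of the 3 largest rises in the G2/M list, *FLP* and *AGP31* are known for other roles as well. *FLP* (AT1G14350), a MYB factor that limits divisions in the stomatal lineage, had 14.6, 32.2 and 17.8 CPM at Day 6, against 1.58, 1.68 and 1.65 CPM at Day 4 (log2 fold change 3.70, FDR 1.79e-07). *AGP31* (AT1G28290), an arabinogalactan wall protein, had a log2 fold change of 2.64 (FDR 7.87e-06).

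The regulators of this programme did not move alike. *MYB3R-4* (AT5G11510), an activator of G2/M genes, had 21.7, 23.4 and 17.8 CPM at Day 6, against 9.23, 10.8 and 7.64 CPM at Day 4 (2.27-fold, SE of log2 0.20, FDR 1.17e-04). Its close relative *PC-MYB1* (AT4G32730, MYB3R1) had 13.6, 16.8 and 15.2 CPM at Day 6, against 15.8, 16.3 and 12.6 CPM at Day 4 (log2 fold change 0.03, FDR 0.915). The days did not overlap for *MYB3R-4* and overlapped fully for *PC-MYB1*. *CDC20.1* (AT4G33270) and *CDC20.2* (AT4G33260) are neighbouring, near-identical genes for the activator of the anaphase-promoting complex, so their counts are uncertain. *CDC20.1* had 47.0, 53.0 and 36.7 CPM at Day 6, against 15.2, 34.7 and 18.5 CPM at Day 4 (log2 fold change 1.00, FDR 0.00293), and *CDC20.2* had a log2 fold change of 1.15 (FDR 0.00161). The *CDC20.1* call was lost without replicate 1 or 3 of Day 4 WT or replicate 1 or 2 of Day 6 WT (FDRs of 0.0116 to 0.0203). The *CDC20.2* call was lost without Day 4 WT replicate 3 (FDR 0.0101) or Day 6 WT replicate 2 (FDR 0.0125). With only the 6 WT libraries fitted, the FDRs were 0.0242 for *CDC20.1* and 0.0133 for *CDC20.2*.

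**Figure D2:**
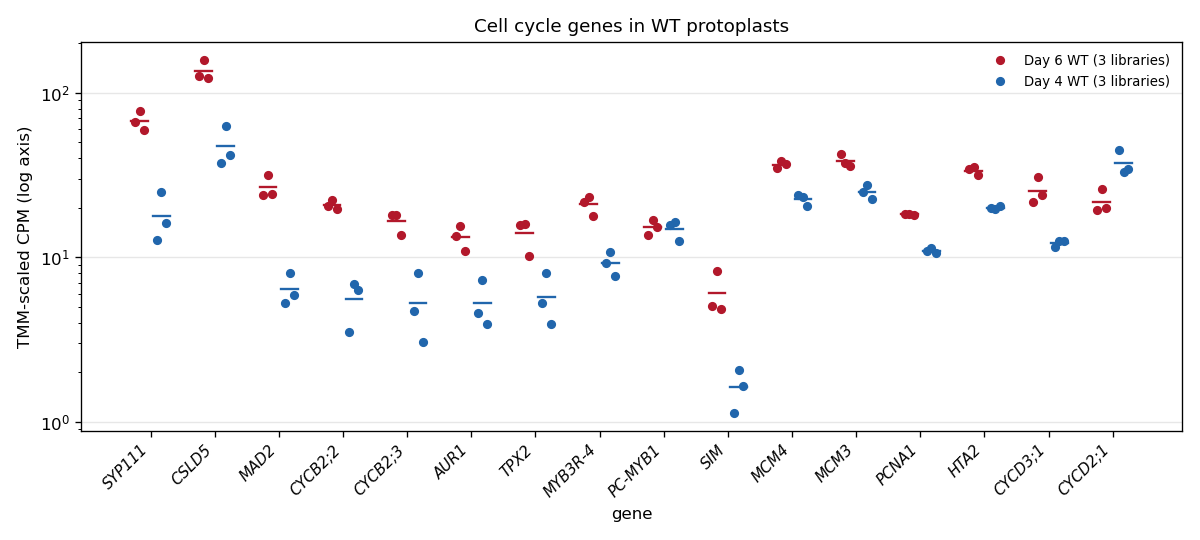
TMM-scaled CPM (log axis) of 16 cell cycle genes in each WT library, Day 6 left of Day 4 for each gene, with 3 libraries per day and a short line at the mean. Genes of G2 and M phase were separated more widely between the days than genes of replication. *PC-MYB1* overlapped, and *CYCD2;1* was lower at Day 6.

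Some genes of S phase rose. Of 169 tested S phase-specific genes, a published list that the study also displays for these libraries, 45 (26.6%) were upregulated and 7 (4.14%) downregulated, with a median of 0.44. The upregulated count fell to 28 without Day 4 WT replicate 1, 29 without Day 4 WT replicate 2, 24 without Day 4 WT replicate 3 and 22 without Day 6 WT replicate 2. All 6 genes of the MCM2 to MCM7 helicase, which opens DNA at replication origins, were upregulated (median 0.61), but 3 were called without Day 4 WT replicate 1 or Day 6 WT replicate 1, and 2 without Day 4 WT replicate 3 or Day 6 WT replicate 2. *MCM4* (AT2G16440) had 34.7, 38.3 and 36.8 CPM at Day 6, against 23.9, 23.3 and 20.6 CPM at Day 4 (1.62-fold, FDR 6.12e-05). *MCM3* (AT5G46280) had 42.3, 37.5 and 35.9 CPM at Day 6, against 24.9, 27.6 and 22.7 CPM at Day 4 (log2 fold change 0.62, FDR 0.00112). The increase was small and even across libraries in both.

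The promoters of these 2 helicase genes are shown because 5 of the 6 MCM genes (83.3%) hold an E2F element in the same window. Capitals mark the E2F element on either strand (TTTGGCGC reads GCGCCAAA on the other strand). Both genes are on the minus strand, *MCM3* at chr5:18773657-18773956 and *MCM4* at chr2:7130680-7130979.
MCM3: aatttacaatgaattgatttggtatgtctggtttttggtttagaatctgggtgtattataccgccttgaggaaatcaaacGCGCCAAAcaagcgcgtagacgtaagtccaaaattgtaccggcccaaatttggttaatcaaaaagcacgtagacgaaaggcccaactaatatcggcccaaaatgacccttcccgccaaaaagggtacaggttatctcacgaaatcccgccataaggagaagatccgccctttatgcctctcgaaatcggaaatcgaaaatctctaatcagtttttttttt
MCM4: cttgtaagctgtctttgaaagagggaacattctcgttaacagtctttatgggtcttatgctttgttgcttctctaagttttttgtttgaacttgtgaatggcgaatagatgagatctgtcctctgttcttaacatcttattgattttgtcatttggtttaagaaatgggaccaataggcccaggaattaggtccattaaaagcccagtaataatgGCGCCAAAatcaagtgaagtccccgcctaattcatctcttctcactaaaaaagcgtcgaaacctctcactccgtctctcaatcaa
The element was centred at -166 in *MCM3* and at -31 in *MCM4*. It occurred in 54 of 174 S phase-specific genes (31.0%), in 1.21% of all protein-coding genes and in 0.541% of the G2/M phase-specific genes. Of tested S phase-specific genes, 34.6% of the 52 with the element and 23.1% of the 117 without it were upregulated, with medians of 0.58 and 0.36.

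Replication and chromatin genes of several other kinds had small positive values. *PCNA1* (AT1G07370), the sliding clamp of DNA polymerase, had 18.3, 18.2 and 18.1 CPM at Day 6, against 10.9, 11.3 and 10.6 CPM at Day 4 (log2 fold change 0.74, FDR 0.00728). The libraries of a day were nearly equal, yet the call was lost when any of the 6 libraries was left out, at FDRs between 0.0197 and 0.0247. Of 17 tested H2A and H2B histone genes, 6 were upregulated and none downregulated (median 0.42), or 11 and none with library totals alone. The upregulated count was 4 without Day 4 WT replicate 1, Day 6 WT replicate 1 or Day 6 WT replicate 2. Of 5 histone H3.1 genes, 1 was upregulated (median 0.48), or 4 with library totals alone. *HTA2* (AT4G27230), an H2A gene, had 34.2, 35.2 and 31.5 CPM at Day 6, against 19.8, 19.6 and 20.6 CPM at Day 4 (log2 fold change 0.75, FDR 2.24e-04). *CTF7* (AT4G31400), the acetyltransferase that establishes sister chromatid cohesion, had 4.80, 4.3 and 4.39 CPM at Day 6, against 1.80, 1.94 and 1.65 CPM at Day 4 (log2 fold change 1.31, FDR 7.59e-04). The largest fall in the S phase list was in *CRK13* (AT4G23210), a receptor-like kinase of pathogen response, with a log2 fold change of -2.50 (FDR 5.57e-07).

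G1/S genes were mixed. Of 25 tested core G1/S genes, 7 were upregulated and 1 downregulated (median 0.27), with 4 upregulated without Day 4 WT replicate 1 or Day 6 WT replicate 2 and 3 without Day 4 WT replicate 3. *CYCD3;1* (AT4G34160), a D-type cyclin that responds to cytokinin, had 21.8, 30.7 and 23.8 CPM at Day 6, against 11.6, 12.6 and 12.5 CPM at Day 4 (log2 fold change 1.06, FDR 3.52e-04). *CYCD1;1* (AT1G70210) had 53 reads over the Day 6 libraries and 5 over the Day 4 libraries (log2 fold change 3.06, FDR 5.77e-04). *CYCD2;1* (AT2G22490) went the other way, with 19.4, 26.0 and 19.9 CPM at Day 6, against 44.9, 32.9 and 34.6 CPM at Day 4 (log2 fold change -0.79, FDR 0.0023). Without Day 4 WT replicate 1, its highest library, its FDR was 0.0152. It was 0.014 without Day 6 WT replicate 1 and 0.0138 without Day 6 WT replicate 3. Among inhibitors, the SIAMESE gene *SIM* (AT5G04470), which blocks mitosis in endoreduplicating trichomes, had 5.03, 8.27 and 4.86 CPM at Day 6, against 1.13, 2.07 and 1.65 CPM at Day 4 (log2 fold change 1.90, FDR 2.39e-04). *ICK1* (AT2G23430, KRP1), a cyclin-dependent kinase inhibitor, was at 8.82 to 10.9 CPM at Day 6 and 10.5 to 13.1 CPM at Day 4 (log2 fold change -0.22, FDR 0.367), with overlap.

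Several transcription factors of stem cells rose. *WOX4* (AT1G46480), which maintains the vascular cambium, had 22.6, 26.1 and 20.7 CPM at Day 6, against 4.73, 3.50 and 3.18 CPM at Day 4 (6.02-fold, SE of log2 0.25, FDR 2.92e-07). *HB-8* (AT4G32880), a class III homeodomain factor of procambium, had 13.8, 22.5 and 14.4 CPM at Day 6, against 7.20, 6.74 and 6.62 CPM at Day 4 (log2 fold change 1.30, FDR 2.22e-04). *LBD4* (AT1G31320), a factor of the cambium border, had 109, 114 and 165 CPM at Day 6, against 23.7, 22.8 and 31.8 CPM at Day 4 (4.96-fold, FDR 9.47e-08). In each of these genes the lowest Day 6 library lay above the highest Day 4 library, by a wide margin in *WOX4* and *LBD4*. Of 3 procambium markers, 2 were upregulated and none downregulated, and their summed level was 47.0 to 72.9 CPM at Day 6 and 19.6 to 21.5 CPM at Day 4.

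Of 10 tested regeneration and meristem factors, 5 were upregulated and 2 downregulated. Without Day 4 WT replicate 1 there were 4 and none, and leaving out any 1 of the Day 6 WT libraries left 1 downregulated. *WOX11* (AT3G03660), which starts adventitious roots and callus from explants, had 94, 101 and 205 reads in the Day 6 libraries, against 32, 17 and 25 reads in the Day 4 libraries (4.54-fold, FDR 2.12e-05). *ERF115* (AT5G07310), a wound-responsive factor of stem cell replacement, had 4.35, 5.18 and 9.90 CPM at Day 6, against 1.13, 0.259 and 1.27 CPM at Day 4 (log2 fold change 2.84, FDR 1.49e-04). Both genes were highest in Day 6 replicate 3 and did not overlap between the days. *CUC1* (AT3G15170), a boundary factor, rested on 66 reads at Day 6 and 12 at Day 4 (log2 fold change 2.21, FDR 0.00387). Its call was lost in 4 of the 6 fits that left out a WT library, with FDRs up to 0.0205. *SCR* (AT3G54220), a root stem cell factor, was downregulated (log2 fold change -1.16, FDR 0.00115), with an FDR of 0.0128 without Day 4 WT replicate 1.

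Of the 3 tested PLETHORA-type genes, *AIL6* (AT5G10510, PLT3) had 25.3, 40.3 and 23.8 CPM at Day 6, against 11.1, 10.4 and 7.0 CPM at Day 4 (log2 fold change 1.64, FDR 2.79e-05). *AIL5* (AT5G57390, PLT5) had 4.00, 8.82 and 6.44 CPM at Day 6, against 3.94, 4.28 and 2.67 CPM at Day 4, and *AIL7* (AT5G65510, PLT7) had 3.77, 5.51 and 3.73 CPM at Day 6, against 7.54, 5.70 and 3.82 CPM at Day 4. Both overlapped between the days and did not pass the test (FDR 0.0374 and 0.257). *WRKY23* (AT2G47260), an auxin-responsive WRKY factor, had 331, 318 and 395 CPM at Day 6, against 110, 87.5 and 108 CPM at Day 4 (3.42-fold, FDR 3.44e-07).

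Auxin-response families differed in their counts. Of 10 tested genes of the study's auxin signalling list, 2 were upregulated and none downregulated (median -0.03), and none was called without Day 4 WT replicate 3 or Day 6 WT replicate 2. Of 20 tested Aux/IAA genes, 9 were upregulated and 1 downregulated (median 0.69), or 14 and 1 with library totals alone. *IAA30* (AT3G62100) had 16.5, 16.3 and 23.2 CPM at Day 6, against 2.48, 2.85 and 3.95 CPM at Day 4 (6.06-fold, FDR 1.89e-07). *IAA20* (AT2G46990) had 122 reads over the Day 6 libraries and 7 over the Day 4 libraries (log2 fold change 3.80, SE 0.57, FDR 1.79e-04). Both encode Aux/IAA proteins without the degron that auxin acts on in most of the family. *AXR3* (AT1G04250, IAA17) was the downregulated member, with 17 reads at Day 6 and 63 at Day 4 (log2 fold change -2.10, FDR 0.00454). Its call was lost in 4 of the 6 fits that left out a WT library, with FDRs up to 0.0302. *IAA18* (AT1G51950) did not pass the test (log2 fold change -0.01, FDR 0.946), and *SHY2* (AT1G04240, IAA3) and *IAA14* (AT4G14550), with 19 and 16 reads at Day 6 and 25 and 20 at Day 4, were too low to be tested.

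Of 15 tested ARF genes, 4 were upregulated and 1 downregulated (median 0.06). *ARF4* (AT5G60450) had 37.2, 38.8 and 39.2 CPM at Day 6, against 15.4, 15.2 and 16.9 CPM at Day 4 (log2 fold change 1.28, FDR 1.39e-06). *ARF8* (AT5G37020) had a log2 fold change of 1.31 (FDR 2.95e-04), and *MP* (AT1G19850, ARF5), which directs vascular and embryo patterning, had 118, 131 and 111 CPM at Day 6, against 84.5, 80.2 and 71.8 CPM at Day 4 (log2 fold change 0.60, FDR 2.95e-04). Of the 2 genes that are mutated in the double mutant, *NPH4* (AT5G20730, ARF7) had 30.8, 30.5 and 28.3 CPM at Day 6, against 38.8, 35.9 and 33.7 CPM at Day 4 (log2 fold change -0.28, FDR 0.0555). *ARF19* (AT1G19220) had 80.7, 68.2 and 69.1 CPM at Day 6, against 60.9, 50.9 and 42.9 CPM at Day 4 (log2 fold change 0.49, FDR 0.00982). Neither overlapped between the days, but only *ARF19* passed the threshold. It lost the call in 13 of 20 alternative fits, among them 5 of the 6 that left out a WT library, with FDRs up to 0.065.

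Of 5 tested PIN genes, which encode auxin exporters and relatives, 4 were upregulated and none downregulated (median 0.90). *PIN4* (AT2G01420) had 19, 21.6 and 21.6 CPM at Day 6, against 7.65, 8.29 and 7.77 CPM at Day 4 (2.62-fold, FDR 1.05e-05), and *PIN7* (AT1G23080) had a log2 fold change of 0.90 (FDR 2.03e-05). *GH3.1* (AT2G14960), of a family in which some members conjugate auxin to amino acids, had 197, 239 and 303 CPM at Day 6, against 94.2, 67.4 and 90.9 CPM at Day 4 (log2 fold change 1.55, FDR 3.85e-06). Of 9 GH3 genes it was the only one upregulated (11.1%) and 2 (22.2%) were downregulated, beside 9.38% and 11.9% of all genes tested. No GH3 gene was downregulated without Day 4 WT replicate 1, 1 was without Day 6 WT replicate 1 or replicate 3, and 4 were without Day 4 WT replicate 3. Of 15 tested LBD genes, 4 were upregulated and none downregulated, and the lateral root factors *LBD16* (AT2G42430) and *LBD18* (AT2G45420) had log2 fold changes of 0.48 and -1.02, with FDRs of 0.0674 and 0.0133. Of 22 tested SAUR genes, 6 (27.3%) were upregulated and 1 (4.55%) downregulated (median 0.53), beside 9.38% and 11.9% of all genes tested. These counts were 3 and 1 without Day 4 WT replicate 3 or Day 6 WT replicate 2.

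Several genes of auxin and camalexin synthesis from tryptophan fell. Of 7 tested genes of the study's IAA biosynthesis list, none was upregulated and 3 were downregulated, and the median was -1.56. *CYP79B2* (AT4G39950), which makes indole-3-acetaldoxime, had 71.1, 85.0 and 75.5 CPM at Day 6, against 555, 418 and 268 CPM at Day 4 (log2 fold change -2.42, SE 0.20, FDR 5.84e-08). *CYP79B3* (AT2G22330), its homologue, had a log2 fold change of -1.77 (FDR 9.04e-06), and *CYP71A13* (AT2G30770), the next step towards camalexin, averaged 15.7 ± 3.98 CPM at Day 6 and 128 ± 48.8 CPM at Day 4 (SD, n = 3 each), with 175, 131 and 77.4 CPM in the Day 4 libraries (log2 fold change -3.03, FDR 1.54e-06). For both *CYP79B2* and *CYP71A13* the highest Day 4 library was replicate 1 and the lowest was replicate 3, yet the lowest lay several times above Day 6. Their WT means at Day 0 were 2.33 and 22.4 CPM. The close copy of *CYP71A13* in the same cluster makes its count uncertain. *YUC1* (AT4G32540), an auxin synthesis gene that the study names, had 1 read over the Day 6 libraries and 0 over the Day 4 libraries.

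Cytokinin genes did not share a direction. Of 7 tested type-A response regulators, which dampen cytokinin signalling, 3 were upregulated and none downregulated, but 1 was called without Day 4 WT replicate 2 or without Day 6 WT replicate 3. *ARR15* (AT1G74890) had 4.35, 4.08 and 5.32 CPM at Day 6, against 0.900, 1.68 and 1.53 CPM at Day 4 (log2 fold change 1.75, FDR 1.01e-04). Of 7 CKX genes, which degrade cytokinin, *CKX3* (AT5G56970) had 162, 148 and 183 CPM at Day 6, against 70.5, 73.5 and 75.1 CPM at Day 4 (log2 fold change 1.17, FDR 2.51e-05). *CKX4* (AT4G29740) had 3.77, 1.87 and 5.51 CPM at Day 6, against 33.1, 13.9 and 13.0 CPM at Day 4 (log2 fold change -2.41, FDR 5.34e-05). The 2 genes moved in opposite directions with no overlap in either. *LOG3* (AT2G37210), which activates cytokinin, had a log2 fold change of 1.27 (FDR 6.79e-04).

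**Figure D3:**
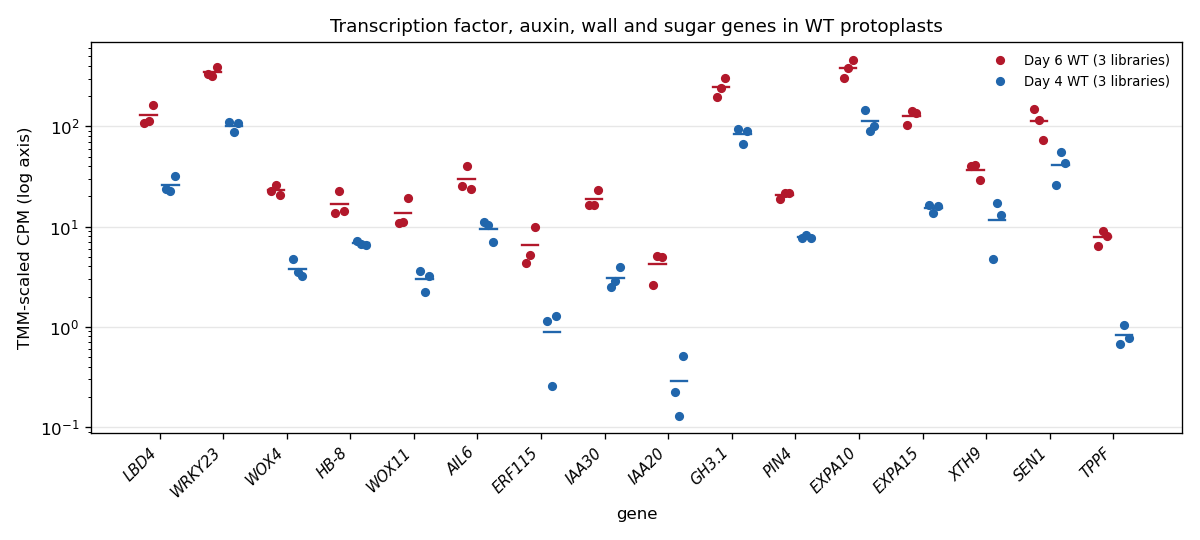
TMM-scaled CPM (log axis) of 16 transcription factor, auxin, wall and sugar genes in each WT library, Day 6 left of Day 4, with 3 libraries per day and a short line at the mean. All Day 6 libraries lay above all Day 4 libraries for each gene shown. No overlap was among the conditions by which list and ranked genes were chosen.

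Wall genes separated by kind. Of 11 tested alpha-expansins, which loosen walls, 5 were upregulated and 1 downregulated (median 0.85). *EXPA15* (AT2G03090) had 103, 143 and 137 CPM at Day 6, against 16.4, 13.6 and 16.0 CPM at Day 4 (8.31-fold, FDR 1.77e-08), and *EXPA10* (AT1G26770) had 304, 386 and 462 CPM at Day 6, against 145, 90.1 and 102 CPM at Day 4 (3.42-fold, FDR 5.80e-07). *EXP3* (AT2G37640, EXPA3), which the match by symbol left out of these counts, rested on 146 reads at Day 6 and 11 at Day 4 (log2 fold change 3.46, FDR 4.13e-06). *EXPA14* (AT5G56320) was the downregulated member, with 20 reads at Day 6 and 73 at Day 4 (log2 fold change -2.07, FDR 0.00193, or 0.0113 when only the 6 WT libraries were fitted). Of 20 tested XTH genes, which cut and rejoin xyloglucan, 6 were upregulated, led by *XTH9* (AT4G03210, log2 fold change 1.68, FDR 3.73e-04), and 5 were downregulated, led by *XTH33* (AT1G10550), with 1.37, 1.87 and 2.43 CPM at Day 6, against 8.55, 7.65 and 8.91 CPM at Day 4 (log2 fold change -2.12, FDR 3.41e-05). These became 3 and 3 without Day 4 WT replicate 1, 3 and 4 without Day 4 WT replicate 3, and 4 and 3 without Day 6 WT replicate 1. *CEL3* (AT1G71380), an endoglucanase, had 2390, 2710 and 2150 CPM at Day 6, against 924, 1090 and 892 CPM at Day 4 (log2 fold change 1.32, FDR 2.37e-05).

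Of 56 tested genes of the study's cell wall biosynthesis list, 4 (7.14%) were upregulated and 12 (21.4%) downregulated (median -0.16). The shares over all genes tested were 9.38% and 11.9%. *CSLG2* (AT4G24000), a cellulose synthase-like gene, had a log2 fold change of 1.28 (FDR 4.49e-06), and *CESA2* (AT4G39350), a cellulose synthase of primary walls, had 85.7, 78.3 and 91.9 CPM at Day 6, against 126, 169 and 153 CPM at Day 4 (log2 fold change -0.81, FDR 0.00179, or 0.0113 without Day 6 WT replicate 2). Extensins are wall glycoproteins that are crosslinked after wounding, and 2 of them fell. *EXT3* (AT1G21310) had 1240, 999 and 1640 CPM at Day 6, against 7400, 4650 and 4440 CPM at Day 4 (log2 fold change -2.09, FDR 4.36e-06), and *EXT4* (AT1G76930) had 74.5, 67.2 and 116 CPM at Day 6, against 785, 504 and 506 CPM at Day 4 (log2 fold change -2.80, FDR 4.83e-08). Day 4 replicate 1 was the highest library for both, and all Day 4 libraries stood far above all Day 6 libraries. The repeats that extensins share make their counts uncertain. In contrast, *PRP4* (AT4G38770), a proline-rich wall protein, had 8.01, 21.0 and 10.8 CPM at Day 6, against 1.58, 0.907 and 0.509 CPM at Day 4 (log2 fold change 3.68, FDR 6.95e-07).

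Genes that respond to darkness and low sugar rose. Of 8 tested, all had positive values and 5 were upregulated (median 1.12), a count that was 2 without Day 6 WT replicate 1 or replicate 2, 3 without any 1 of the Day 4 WT libraries, and 6 without Day 6 WT replicate 3. *SEN1* (AT4G35770) had 148, 115 and 73.5 CPM at Day 6, against 26.0, 55.1 and 42.8 CPM at Day 4 (2.72-fold, FDR 5.06e-04), and *BCAT-2* (AT1G10070), of branched-chain amino acid breakdown, had 90.2, 65.3 and 48.0 CPM at Day 6, against 19.6, 29.9 and 29.7 CPM at Day 4 (2.57-fold, FDR 1.80e-04). Both were lowest in replicate 3 at Day 6 and lowest in replicate 1 at Day 4. *TPPF* (AT4G12430), which removes trehalose 6-phosphate, a sugar signal, had 6.4, 9.04 and 8.12 CPM at Day 6, against 0.675, 1.04 and 0.764 CPM at Day 4 (9.42-fold, FDR 1.19e-07). The sucrose synthase gene *SUS1* (AT5G20830) had 169, 178 and 195 CPM at Day 6, against 73.8, 82.4 and 124 CPM at Day 4 (log2 fold change 0.95, FDR 2.92e-04). *SUS4* (AT3G43190), which responds to low oxygen, had 10.6, 7.17 and 28.2 CPM at Day 6, against 0.338, 0.648 and 3.31 CPM at Day 4 (log2 fold change 3.45, FDR 5.72e-05). It was highest in replicate 3 on both days. Of 10 tested hypoxia genes, which include both sucrose synthases, 3 were upregulated and none downregulated (median 0.86). The upregulated count was 6 without Day 4 WT replicate 3. It was 2 without Day 4 WT replicate 1, Day 4 WT replicate 2 or Day 6 WT replicate 3. Without Day 6 WT replicate 3 the median was 0.14.

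Among the 15 genes that rose most, of those with a RefSeq symbol, no overlap and a mean of at least 20 reads, were also *PDF2.1* (AT2G02120), a plant defensin, with 54.0, 75.4 and 55.4 CPM at Day 6, against 6.64, 7.65 and 6.11 CPM at Day 4 (9.04-fold, FDR 3.47e-08), and *JAL33* (AT3G16450), a jacalin-type lectin (log2 fold change 3.1, FDR 3.56e-08). *MC9* (AT5G04200), a metacaspase of xylem cell clearance, had 13.8, 17.3 and 14.8 CPM at Day 6, against 1.91, 1.81 and 3.44 CPM at Day 4 (log2 fold change 2.68, FDR 9.59e-07). *BFN1* (AT1G11190), a nuclease of developmental cell death, had 13.7, 19.6 and 12.6 CPM at Day 6, against 1.13, 2.2 and 3.95 CPM at Day 4 (log2 fold change 2.67, FDR 1.81e-05). Neither overlapped between the days. The xylem markers, in comparison, summed to 2.33 to 2.97 CPM at Day 6 and 1.43 to 4.16 CPM at Day 4, with 1 of 7 high enough to be tested. *HAI2* (AT1G07430), a phosphatase of abscisic acid (ABA) signalling, and *AO4* (AT1G04580), an aldehyde oxidase, had log2 fold changes of 2.81 and 2.70 (FDR 6.26e-07 and 1.19e-07).

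Some pathogen-response genes fell. Of 56 tested WRKY genes, 2 were upregulated and 15 downregulated (median -0.29), and 7 were downregulated when only the 6 WT libraries were fitted. The downregulated count was 10 without Day 4 WT replicate 1 or Day 6 WT replicate 2, and 18 without Day 4 WT replicate 2. Of 12 salicylic acid and defence markers, none was upregulated and 6 were downregulated (median -0.76). Without Day 4 WT replicate 1 or Day 6 WT replicate 1, 1 was upregulated and 4 were downregulated. These markers summed to 247 to 283 CPM at Day 0, 2110 to 2930 CPM at Day 4 and 1140 to 1600 CPM at Day 6 in WT. The WRKY genes summed to 9120 to 11600 CPM at Day 0, 1460 to 2360 CPM at Day 4 and 1610 to 1820 CPM at Day 6. *WRKY29* (AT4G23550), a factor of flagellin-triggered immunity, had 1.37, 0.551 and 1.31 CPM at Day 6, against 12.4, 7.52 and 9.67 CPM at Day 4 (log2 fold change -3.17, FDR 6.14e-06). *FRK1* (AT2G19190), a receptor kinase induced by flagellin, had 1.49, 1.54 and 1.59 CPM at Day 6, against 14.9, 10.6 and 10.1 CPM at Day 4 (log2 fold change -2.93, FDR 1.95e-05). *IOS1* (AT1G51800), a receptor kinase that primes such immunity, had 7.55, 5.73 and 10.6 CPM at Day 6, against 88.5, 37.1 and 48.2 CPM at Day 4 (log2 fold change -2.86, FDR 6.95e-07). In these genes every Day 6 library lay at a fraction of the lowest Day 4 library. *CRK22* (AT4G23300), a cysteine-rich receptor kinase, had the largest fall of the genes with a RefSeq symbol, a call, no overlap and a mean of at least 20 reads, with 19 reads over the Day 6 libraries and 205 over the Day 4 libraries (log2 fold change -3.61, SE 0.33, FDR 1.79e-07).

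*PR4* (AT3G04720), a hevein-like pathogenesis-related protein, had 289, 249 and 476 CPM at Day 6, against 1530, 1010 and 1030 CPM at Day 4 (log2 fold change -1.81, FDR 1.81e-05). Its WT mean at Day 0 was 3.68 CPM. The peroxidase gene *PRXCB* (AT3G49120), which makes the oxidative burst, had 1550, 1410 and 1860 CPM at Day 6, against 4790, 3520 and 3270 CPM at Day 4 (log2 fold change -1.26, FDR 4.13e-05), and *GSTF6* (AT1G02930), a glutathione transferase, had a log2 fold change of -0.90 (FDR 6.42e-04). All Day 4 libraries exceeded all Day 6 libraries for each. *RGF7* (AT3G02240), a root growth factor peptide, rested on 12 reads at Day 6 and 109 at Day 4 (log2 fold change -3.33, FDR 3.30e-05). *SAG13* (AT2G29350), a senescence and pathogen marker, had 32.6, 15.9 and 19.3 CPM at Day 6, against 102, 58.1 and 49.9 CPM at Day 4 (log2 fold change -1.64, FDR 2.62e-04), while 2 of the 7 tested senescence genes were upregulated and 2 downregulated.

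Of 12 tested genes of jasmonate synthesis and response, 5 were downregulated and none upregulated (median -0.31). *LOX2* (AT3G45140), a lipoxygenase of jasmonate synthesis in leaves, had 307, 181 and 235 CPM at Day 6, against 521, 756 and 819 CPM at Day 4 (log2 fold change -1.54, FDR 1.63e-05), and *OPR3* (AT2G06050), a later enzyme of the pathway, had a log2 fold change of -0.99 (FDR 2.21e-05). Of 11 ABA and osmotic genes, 3 (27.3%) were downregulated and none upregulated, beside 11.9% and 9.38% of all genes tested. The downregulated count was 2 without Day 4 WT replicate 1 or Day 6 WT replicate 1 or 3. *COR15A* (AT2G42540), a cold and drought protein of the chloroplast, averaged 19.5 ± 3.49 CPM at Day 6 and 66.1 ± 7.89 CPM at Day 4 (SD, n = 3 each), with no overlap (log2 fold change -1.76, FDR 5.57e-07). *BGLU18* (AT1G52400), a glucosidase that frees ABA from its conjugate, had 4.80, 5.73 and 4.01 CPM at Day 6, against 21.9, 53.0 and 54.0 CPM at Day 4 (log2 fold change -3.15, FDR 2.56e-07). Here Day 4 replicate 1 was the lowest Day 4 library, unlike in *IOS1* or *EXT3*, and it still exceeded all of Day 6.

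Heat shock genes fell. All 8 had negative values, and 7 were downregulated (median -2.01), or 4 when only the 6 WT libraries were fitted. *HSP90.1* (AT5G52640), a stress-inducible chaperone, had 120, 48.2 and 58.7 CPM at Day 6, against 135, 362 and 515 CPM at Day 4 (log2 fold change -2.16, FDR 1.88e-04). Day 6 replicate 1 and Day 4 replicate 1 lay close together, and the other libraries were far apart. *HSP17.6A* (AT5G12030), a small heat shock protein, had 10.9, 4.08 and 6.16 CPM at Day 6, against 40.3, 18.5 and 26.7 CPM at Day 4 (log2 fold change -2.03, FDR 1.74e-04). In the freshly isolated Day 0 WT protoplasts *HSP90.1* stood at 15300 to 16000 CPM. *HSC70-1* (AT5G02500), a chaperone present in all tissues, had a log2 fold change of -0.65 (FDR 0.00135, or 0.0107 without Day 6 WT replicate 3).

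**Figure D4:**
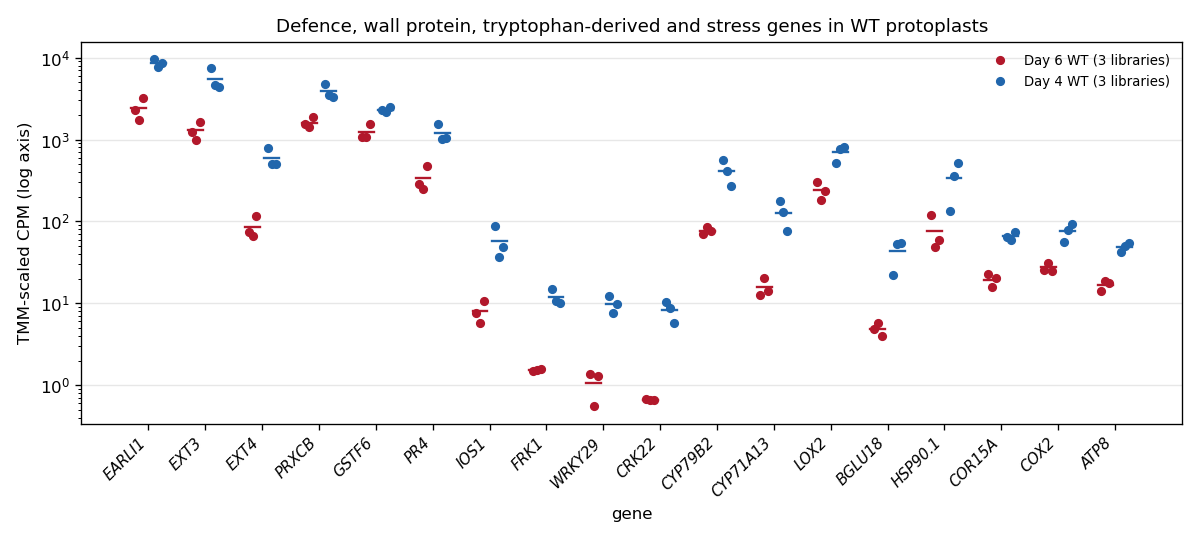
TMM-scaled CPM (log axis) of 18 defence, wall protein, tryptophan-derived, stress and mitochondrial genes in each WT library, Day 6 left of Day 4, with 3 libraries per day and a short line at the mean. All Day 6 libraries lay below all Day 4 libraries for each gene shown, with the smallest gap in *HSP90.1*. No overlap was among the conditions by which list and ranked genes were chosen.

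Most transcripts of the mitochondrial genome fell. All 19 tested genes of the mitochondrial genome had negative values and 12 were downregulated (median -1.02), and 18 were downregulated without Day 4 WT replicate 1. *COX2* (ATMG00160), a cytochrome oxidase subunit, had 25.6, 31.4 and 25.1 CPM at Day 6, against 56.6, 79.1 and 93.9 CPM at Day 4 (log2 fold change -1.48, FDR 5.80e-06), and *ATP8* (ATMG00480), an ATP synthase subunit, had 14.2, 18.6 and 17.9 CPM at Day 6, against 41.9, 49.9 and 55.2 CPM at Day 4 (log2 fold change -1.53, FDR 8.23e-07). Libraries of polyadenylated RNA hold organelle transcripts only in part. Of 62 tested genes of the nuclear respiratory chain list, 10 were downregulated and none upregulated (median -0.12). That list holds 5 copies in the mitochondrial DNA inserted in chromosome 2, whose reads cannot be told apart from those of the organelle genome with certainty, and 4 of the 10 were among them. Of the other 57, 6 were downregulated (median -0.10). Of the whole list 16.1% were downregulated, beside 11.9% of all genes tested. The whole list had 5 downregulated genes without Day 4 WT replicate 2 and 6 without Day 6 WT replicate 1 or replicate 2. With library totals alone the respiratory list had a median of 0.01 and 2 upregulated against 5 downregulated genes.

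Of 29 tested genes of the tricarboxylic acid (TCA) cycle, 9 were downregulated and none upregulated (median -0.29), a count of 4 without Day 4 WT replicate 1 or Day 6 WT replicate 2 and of 5 without Day 4 WT replicate 2 or Day 6 WT replicate 3. With library totals alone, 2 were upregulated and 4 downregulated.

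For the plastid, few genes passed the test. All 22 tested genes of the plastid genome had negative values (median -0.60), but 1 passed the test, *psbM* (ATCG00220, a photosystem II subunit), with 8.01, 12.1 and 13.2 CPM at Day 6, against 53.8, 46.0 and 45.1 CPM at Day 4 (log2 fold change -2.11, FDR 1.60e-04). Without Day 4 WT replicate 1, 7 were downregulated (median -0.97), and without Day 4 WT replicate 3 the median was -0.17. Their summed level overlapped, at 2500 to 3500 CPM at Day 6 and 2400 to 6230 CPM at Day 4. Of 69 tested nuclear genes for photosystems and antennae, 60 had positive values (median 0.51), of which 5 were upregulated (2 without Day 4 WT replicate 1, Day 4 WT replicate 2 or Day 6 WT replicate 1), led by *PSAN* (AT5G64040), a photosystem I subunit, with 29.5, 23.0 and 27.6 CPM at Day 6, against 5.18, 10.4 and 14.3 CPM at Day 4 (log2 fold change 1.44, FDR 0.00143). The 1 downregulated member of that list, *PSAT* (AT4G35630), is a phosphoserine aminotransferase of serine synthesis (log2 fold change -1.21, FDR 1.19e-07). *NYC1* (AT4G13250), a chlorophyll b reductase of chlorophyll breakdown, had 95, 89.0 and 85.5 CPM at Day 6, against 41.9, 39.5 and 43.0 CPM at Day 4 (log2 fold change 1.11, FDR 3.03e-06), whereas *CLH1* (AT1G19670), a chlorophyllase, had 1.49, 0.662 and 2.24 CPM at Day 6, against 8.89, 14.8 and 13.1 CPM at Day 4 (log2 fold change -3.01, FDR 2.40e-07). Each was separated between the days, in opposite directions.

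The label of mesophyll protoplasts was checked against cell type markers. All 6 mesophyll markers were detected, with summed levels of 565 to 794 CPM at Day 6, 338 to 622 CPM at Day 4 and 1370 to 2080 CPM at Day 0. *RBCS1A* (AT1G67090), a Rubisco small subunit gene, had 378, 252 and 283 CPM at Day 6, against 88.3, 132 and 236 CPM at Day 4, which did not pass the test (FDR 0.0172). It passed with library totals alone (FDR 0.00757), with no filter on low counts (FDR 0.00224) and without Day 4 WT replicate 3 (FDR 0.00135). *CA1* (AT3G01500), the chloroplast carbonic anhydrase, was downregulated (log2 fold change -1.83, FDR 2.88e-04). Of 6 epidermis markers, 3 were tested and 2 were downregulated: *KCS6* (AT1G68530), of wax synthesis, had 59 reads at Day 6 and 222 at Day 4 (log2 fold change -2.11, FDR 1.47e-05), and *KCS10* (AT2G26250), of the cuticle, had 24 reads at Day 6 and 83 at Day 4 (log2 fold change -1.98, FDR 6.77e-04). The epidermis markers summed to 2.86 to 5.07 CPM at Day 6 and 12.7 to 19.5 CPM at Day 4, and the guard cell markers to 7.89 to 14.0 CPM at Day 6 and 15.1 to 18 CPM at Day 4, with none of the 5 tested past the threshold. Of 4 phloem and companion cell markers, 2 were tested, of which 1 was upregulated and 1 downregulated. The upregulated one, *SUC2* (AT1G22710), the companion cell sucrose transporter, had 27.1, 26.8 and 23.3 CPM at Day 6, against 12.4, 12.8 and 8.02 CPM at Day 4 (log2 fold change 1.21, FDR 5.17e-04). The 4 markers summed to 135 to 176 CPM at Day 6 and 176 to 217 CPM at Day 4. The part of such cell types in the results above was not tested.

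By reads, a lipid transfer-like gene (AT4G12490) led both days, with 19200, 15800 and 20200 CPM at Day 6, against 22900, 22800 and 24000 CPM at Day 4 (log2 fold change -0.34, FDR 0.424). Its neighbour *EARLI1* (AT4G12480), of the same protein family, had 2300, 1720 and 3170 CPM at Day 6, against 9530, 7670 and 8560 CPM at Day 4 (3.58-fold lower at Day 6, FDR 2.45e-05). The family lies in tandem copies, so these counts are uncertain. A class III peroxidase gene (AT2G38380) had 7500, 5590 and 8500 CPM at Day 6, against 2530, 3540 and 4210 CPM at Day 4 (log2 fold change 1.07, FDR 6.65e-04). A berberine bridge-type oxidase gene, *FAD-BD* (AT1G30760), which the study places in its auxin signalling list, had 1570, 2120 and 1810 CPM at Day 6, against 1200, 1000 and 649 CPM at Day 4 (log2 fold change 0.95, FDR 0.0024). Its FDR was 0.0151 without Day 4 WT replicate 3 and 0.0149 without Day 6 WT replicate 2. The most-read genes differed between the days, with *EXT3*, *PRXCB* and *GSTF6* among the 10 most read at Day 4 and not at Day 6.

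The change from Day 4 to Day 6 was then set beside that in *nph4-1 arf19-1*, where genotype and the yucasin named in the Day 6 labels cannot be told apart. The difference of the 2 changes passed an FDR of 0.01 for 2195 genes (12.1%): the WT change was more positive for 571 (3.15%) and more negative for 1624 (8.95%). The first count was 339 without Day 4 mutant replicate 2 and 369 without Day 6 WT replicate 2. With library totals alone the split turned round, to 1433 more positive and 984 more negative. In the mutant, 1964 genes were upregulated and 1562 downregulated. Of the genes called in WT, 1228 also differed in their change: 868 were downregulated in WT with a more negative change than in the mutant, 334 were upregulated with a more positive change, and 26 were upregulated with a more negative change.

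**Figure D5:**
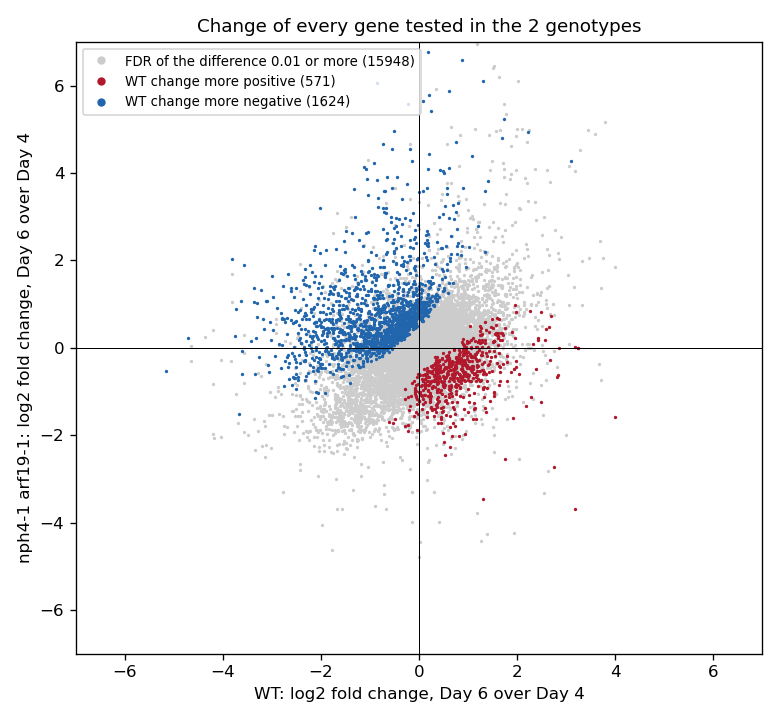
Log2 fold change (Day 6 over Day 4) of each of 18143 genes tested in WT (horizontal axis) and in *nph4-1 arf19-1* (vertical axis). Red points are 571 genes with a more positive WT change and blue points 1624 genes with a more negative WT change at an FDR under 0.01. Grey points are the rest, and 11 genes lie outside the plotted range.

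Genes with a more negative change in WT included defence and wall genes. Of the 56 WRKY genes, 10 had a more negative change in WT and none a more positive one. *PR4* had a log2 fold change of -1.81 in WT and 1.41 in the mutant (difference -3.22, FDR 2.68e-06), and *EXT3* had -2.09 in WT and 1.00 in the mutant (difference -3.09, FDR 4.59e-06). *XTH33* had -2.12 in WT and 2.34 in the mutant (difference -4.45, FDR 2.20e-05). *CYP79B2* had -2.42 in WT and -0.34 in the mutant (difference -2.09, FDR 1.49e-05), and 5 of the 7 IAA biosynthesis genes had a more negative change in WT. All 4 genes were downregulated in WT, whereas in the mutant *PR4*, *EXT3* and *XTH33* were upregulated and *CYP79B2* did not pass the test (FDR 0.183). The respiratory chain and TCA lists also differed, with a more negative WT change for 35 of 62 and 12 of 29 genes and medians of -0.12 and -0.29 in WT, against 0.58 and 0.25 in the mutant.

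Genes with a more positive change in WT included replication and starvation genes. For the S phase-specific list the median was 0.44 in WT and -0.22 in the mutant, with 25 genes more positive and 4 more negative in WT. All 5 histone H3.1 genes and 10 of 17 H2A and H2B genes had a more positive WT change. Of the dark and sugar starvation genes, 7 of 8 did, with medians of 1.12 in WT and -1.14 in the mutant. *SEN1* had a log2 fold change of 1.44 in WT and -1.22 in the mutant (difference 2.66, FDR 1.32e-04), and 4 of 5 PIN genes also had a more positive WT change. The G2/M phase-specific genes had medians of 1.12 in WT and 0.57 in the mutant, and 10 of 174 differed in their change at the threshold. *MYB3R-4* itself had 1.18 in WT and -0.30 in the mutant (difference 1.49, FDR 0.00501). The G2/M genes whose promoters are shown had mutant means of 1.17 to 5.12 CPM at Day 4 and 2.09 to 10.3 CPM at Day 6. Their WT means were 5.57 to 47.5 CPM at Day 4 and 20.7 to 136 CPM at Day 6. Low counts in the mutant limit what the test of the difference can detect. Heat shock and mitochondrial genome transcripts fell in both genotypes, with medians of -2.01 and -1.02 in WT and -1.88 and -1.28 in the mutant, and no gene of either list passed the test of the difference.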

How the data were processed

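RNA-seq libraries of polyadenylated RNA (Kapa stranded mRNA kit) were read single-end on a NextSeq500. According to the study's methods, the authors mapped uniquely matching reads to TAIR10 with Bowtie 0.12.9 and deposited unnormalized tag counts per splice variant, with 3 biological replicates per group. How reads were assigned to variants and whether strand was used are not given in the sources used here, so overlapping, antisense and near-identical genes are uncertain.

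From the deposited counts, the lowest-numbered splice variant of each of 24532 loci was taken (32294 variants in all), because a read can be counted for several variants. Library sizes were the authors' totals of mapped reads. Genes were filtered with filterByExpr (minimum count 10, minimum total 15), scaled by TMM and tested with edgeR 4.0.16 (R 4.3.3, quasi-likelihood F test) in 1 fit of all 18 libraries with 6 group means, and p-values were adjusted by the Benjamini-Hochberg method over all 18143 genes tested. A call is an FDR under 0.01. Fold changes are Day 6 over Day 4, and the SE is the log2 fold change divided by the square root of the F statistic. For a single gene, 3 against 3 libraries cannot give an exact permutation p under 0.1. CPM values are TMM-scaled. DESeq2 1.42.0 and the other settings of the closing section were alternatives. The p-values cover the spread between these libraries.

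Gene lists came from the study's supplementary gene codes or from general knowledge, and families were matched by symbol, which left *EXP3* out of the alpha-expansins. The members and lists were chosen with earlier results of these data known. Genes named are, per list, up to 3 called genes with the highest and the lowest log2 fold changes and no overlap between the days (or the 2 with the highest CPM where there was none), the 15 highest and 15 lowest called genes with a RefSeq symbol (*ERF115* has none there), no overlap and a mean of at least 20 reads, genes the study names, and the 10 most-read genes of each day. Of 207 such genes, 179 passed the test, and some of them are not reported here. Symbols, positions and promoters came from RefSeq's annotation of TAIR10.1, whose nuclear chromosomes carry the TAIR10 sequence, and 24193 of the locus codes matched it.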

Additional observations from a re-analysis of the deposited data

Results flagged for a closer look

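For 41 genes named above, the change from Day 4 to Day 6 differed between WT and *nph4-1 arf19-1* by edgeR's test of the difference itself (FDR under 0.01). Values are the WT change minus the mutant change on the log2 scale. Genotype and the yucasin label of the mutant's Day 6 libraries cannot be told apart, and the part of either was not tested.

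The difference was positive for 18 genes. Among cell cycle genes it was 2.26 for *CTF7*, 1.49 for *MYB3R-4* and 0.99 for *HTA2*. Among transcription factors it was 3.48 for *ERF115* and 2.18 for *WOX4*. Auxin genes had 1.58 for *PIN4*, 1.06 for *PIN7*, 1.82 for *ARF8* and 1.09 for *ARF4*. Sugar and starvation genes had 3.25 for *TPPF*, 2.85 for *BCAT-2*, 2.66 for *SEN1* and 0.95 for *SUS1*. Among the other genes it was 3.47 for *HAI2*, 3.15 for *PDF2.1*, 2.96 for *MC9*, 1.98 for *AO4* and 1.34 for *NYC1*.

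The difference was negative for 23 genes. Pathogen-response genes had -3.59 for *WRKY29*, -3.22 for *PR4*, -3.01 for *CRK22*, -2.94 for *IOS1*, -2.76 for *FRK1*, -2.46 for *SAG13*, -2.26 for *PRXCB*, -1.81 for *GSTF6* and -1.55 for *CRK13*. Wall genes had -4.45 for *XTH33*, -3.45 for *EXT4*, -3.43 for *EXPA14* and -3.09 for *EXT3*. Genes of tryptophan-derived metabolism had -3.22 for *CYP71A13*, -2.09 for *CYP79B2* and -1.64 for *CYP79B3*. Among the other genes it was -3.56 for *RGF7*, -2.84 for *CKX4*, -2.70 for *KCS6*, -1.91 for *psbM*, -1.47 for *EARLI1*, -1.18 for *JAL33* and -0.80 for *OPR3*. *JAL33* was upregulated in both genotypes, more so in the mutant, where its log2 fold change was 4.28.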

How the results depend on the processing

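The counts of WT calls kept within 1.5 times of those reported under DESeq2, other filters, all splice variants, column sums as library sizes and a fit of only the compared libraries. A fit with the replicate number as a block gave 1686 upregulated and 2116 downregulated genes. Libraries of the same number did not deviate together throughout (correlations of -0.085, 0.24 and 0.116), so the numbers are not read as pairs. An FDR under 0.05 gave 2864 upregulated genes and 3243 downregulated genes, and a log2 limit of 1 gave 853 upregulated and 1094 downregulated genes. For the difference between the genotypes, an FDR under 0.05 gave 1372 genes with a more positive and 2554 with a more negative WT change, and library totals alone gave 1433 and 984. Leaving out 1 library gave 1165 to 1332 upregulated and 1543 to 1960 downregulated genes, or 120 to 175 and 190 to 308 with the log2 limit of 2. For the difference between the genotypes it gave 339 to 536 more positive and 1285 to 1592 more negative changes, the lowest positive counts being 339 without replicate 2 of the Day 4 mutant and 369 without Day 6 WT replicate 2. Of 113 single genes in the text that were tested, 95 had the same call and direction under every alternative, not counting fits without a mutant library. The sign turned only for 2 genes that had not passed the test. *IAA18* was at 0.12 with library totals alone and between -0.10 and 0.08 when single libraries were left out, positive without Day 6 WT replicate 3 (0.01) or Day 4 WT replicate 3, and *PC-MYB1* was between -0.08 and 0.09, negative without Day 4 WT replicate 3 or Day 6 WT replicate 2 (-0.05). Of 742 medians of lists under other settings, 672 stayed within the spread between replicates. List counts without single libraries were added after seeing the data. The causes of these moves were not tested. At 3 libraries per day and the depths given above, genes of a few reads per library, such as *YUC1*, *IAA14* and *SHY2*, could not be tested.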
